A study of Mus musculus with 32 samples.

Results

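The 34 genes described here encode the machinery that brings newly made proteins into the endoplasmic reticulum (ER), cuts off their signal peptides and attaches and first trims their N-linked glycans. They were taken by gene symbol from the 36595 rows of the gene table: 7 genes of the signal recognition particle (SRP) and its receptor, 6 of the Sec61 translocon, 4 of the translocon-associated protein complex (TRAP), 5 of the signal peptidase complex, 9 of the oligosaccharyltransferase (OST) and 3 of the glucosidases I and II. All 34 were found, each in 1 row, and all 34 passed the filter on low counts, as did 16428 genes in all. The rule goes by gene function, and the list was drawn up with earlier results of these data known.

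In secretory cells the SRP binds a signal sequence as it leaves the ribosome and docks at its receptor on the ER membrane, where the chain is passed into the Sec61 channel. The signal peptidase removes the signal, and OST moves a glycan built on the lipid dolichol onto asparagine residues, after which glucosidases I and II remove glucose residues before the protein meets calnexin and calreticulin. Preproinsulin and the precursor of islet amyloid polypeptide both enter the secretory pathway this way in beta cells. The unfolded protein response, through ATF6 and XBP1, is a known inducer of many genes of this machinery.

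Libraries of polyadenylated RNA came from islets of 10-week-old male and female mice on the C57BL/6NHsd background. In hIAPP mice, human islet amyloid polypeptide replaces the mouse gene at its own locus by homologous recombination, and mIAPP mice are wild-type littermates that keep the mouse gene. Islets of every group first recovered overnight at 11.1 mM glucose and were then cultured for 48 h at 11.1 or 16.7 mM, in 8 sets of experiments that each held all 4 groups, so that n = 8 in each group of 32 libraries. The number of mice behind a set and how the sexes were divided among groups are not given in the sources used here. The 4 groups are called hIAPP and mIAPP at 11.1 mM and at 16.7 mM below, and a number from 1 to 8 names the set.

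Library totals ran from 16112555 to 43702277 counts. Levels are CPM, counts relative to the library total, after TMM scaling, a factor per library that edgeR derives from the bulk of genes, and they are divided by exon length in kb wherever one gene is set beside another. Counts of mouse Iapp were lower in every hIAPP library than in every mIAPP library at the same glucose (9764 to 11580 against 16860 to 30410 CPM at 16.7 mM, 5647 to 7912 against 8645 to 15610 CPM at 11.1 mM), and how reads of the human sequence were assigned is not given in the sources used here. The beta cell markers dominated the libraries, with Ins1 and Ins2 at a mean of 17.9% to 20.2% of counts in the 4 groups, while the 12 acinar markers summed to means of 46.7 to 73.2 CPM. The share of counts from mitochondrially encoded genes differed between the groups: it was 4.06% ± 1.63 (SD, n = 8) in hIAPP at 16.7 mM, 11.3% ± 11.2 in mIAPP at 16.7 mM, 16.6% ± 7.83 in hIAPP at 11.1 mM and 18.2% ± 11.6 in mIAPP at 11.1 mM. One mIAPP library at 16.7 mM, that of set 7, stood apart at 37.0%, and it was the lowest of its group for 20 of the 34 genes.

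Higher glucose raised nearly the whole machinery in both genotypes. In hIAPP islets 31 of 34 genes were called higher at 16.7 mM and none lower (edgeR's quasi-likelihood test, Benjamini-Hochberg adjusted p under 0.05 over all genes), where 32.2% of all genes tested were called higher and 33.3% lower. In mIAPP islets 33 of 34 were called higher and none lower, against 24.9% and 22.7% of all genes. The median log2 fold change of the 34 was 1.13 in hIAPP and 0.96 in mIAPP islets, beside medians of -0.02 and -0.03 over all genes tested. A rise of more than 2-fold was called for 20 genes in hIAPP islets (8.21% of all genes) and for 14 in mIAPP islets (3.55% of all genes). For 30 genes in hIAPP and 17 in mIAPP islets the lowest library at 16.7 mM lay above the highest at 11.1 mM, a separation that 14.3% and 2.64% of all genes showed. The 31 genes called in hIAPP islets were higher in 8 of 8 sets, and so were 31 of the 33 called in mIAPP islets. Both genotypes were compared within the same sets but share no library in these contrasts.

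Summed over the 34 genes, the level was 10540 ± 513 CPM in hIAPP and 9407 ± 1049 CPM in mIAPP islets at 16.7 mM, against 4884 ± 464 and 4751 ± 600 CPM at 11.1 mM (SD, n = 8). The lowest library at 16.7 mM, mIAPP of set 7 at 7890 CPM, was above the highest at 11.1 mM, mIAPP of set 4 at 5781 CPM. In bulk islets fewer cells of a type and less RNA per cell cannot be told apart. The insulin share was not higher where the machinery was. Ins1 and Ins2 made up 17.9% ± 1.89 of counts in hIAPP at 16.7 mM and 20.2% ± 2.08 at 11.1 mM, and 19.4% ± 2.36 and 20.1% ± 5.53 in mIAPP islets. Of 10 beta cell markers, 8 were called lower and 2 higher (G6pc2 and Iapp) at 16.7 mM in hIAPP islets, and 4 lower and 2 higher in mIAPP islets. Markers of other islet cells also moved with glucose, and the part of any of these lists in the results was not tested. The 7 macrophage markers summed to 125.5 ± 30.65 CPM in hIAPP and 128 ± 35.5 CPM in mIAPP at 16.7 mM, against 295 ± 68.85 and 249.0 ± 45.2 CPM at 11.1 mM. Markers of plasma and B cells, which are rich in this machinery, summed to 4.83 to 24.7 CPM over all libraries. The 7 endothelial markers were all called lower in hIAPP and 4 of 7 in mIAPP islets, summing to 28.2 ± 10.3 and 52.2 ± 21.3 CPM at 16.7 mM against 66.65 ± 23.7 and 80.05 ± 30.6 CPM at 11.1 mM. The 6 ductal markers did not move as 1 list: Spp1 (3.01) and Krt7 (0.79) were called higher and Sox9 (-0.81) lower in hIAPP islets, and of the 5 tested in mIAPP islets Spp1 (2.80) alone was called. Spp1 and Krt7 made up nearly all of the ductal sum, which averaged 889 and 615 CPM in hIAPP and mIAPP islets at 16.7 mM and 363 and 367 CPM at 11.1 mM.

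**Figure D1:**
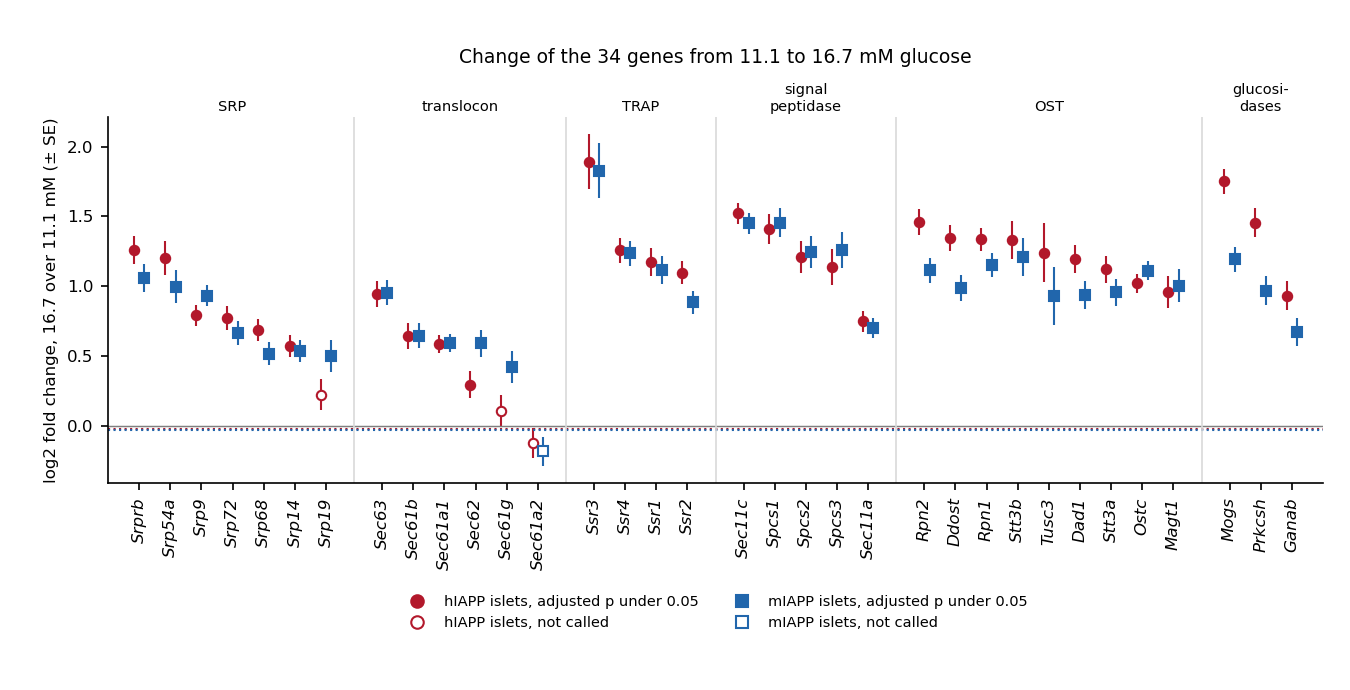
Log2 fold change from 11.1 to 16.7 mM glucose (vertical axis, ± SE) of the 34 genes, ordered by role and by their value in hIAPP islets; circles are hIAPP and squares mIAPP islets, filled where the adjusted p was under 0.05, and dotted lines mark the median of all genes tested in each genotype. Every gene but Sec61a2 lies above both lines, and Ssr3 reaches 1.89 and 1.83.

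Promoter windows were read to show the DNA next to genes that moved together and next to one that did not. RefSeq windows on GRCm38.p6 were matched for 26 of the 34 genes and searched on both strands over the 250 bases before the annotated start. Neither full ER stress element was found in any of the 26: ERSE, in which CCAAT and CCACG stand 9 bases apart, occurs in 0.13% of the 27025 genes with a window, and ERSE-II, in which ATTGG and CCACG stand 1 base apart, in 0.037%. The core TGACGTG of the unfolded protein response element was found in 1 of 26 genes (3.85%, against 1.85% of all). A CCAAT box, part of ERSE and common in promoters, was found in 12 of 26 (46.2%, against 37.5% of all), and the half-site CCACG in 11 of 26 (42.3%, against 8368 of all 27025). These matches are descriptions of letters in short windows, and they say nothing about binding. The 4 windows printed here leave out any base inside the annotated gene and run 5′ to 3′ on the gene's strand, with CCAAT (or ATTGG, its reverse complement), CCACG and TGACGTG in capitals. They belong to Sec61a2, the translocon gene that did not rise (chr2:5895433-5895682, minus strand), Ssr3, with the largest rise (chr3:65392624-65392803, minus strand), Ddost, with the highest level per kb (chr4:138304488-138304729, plus strand), and Mogs, the single gene with TGACGTG (chr6:83115256-83115495, plus strand).
Sec61a2: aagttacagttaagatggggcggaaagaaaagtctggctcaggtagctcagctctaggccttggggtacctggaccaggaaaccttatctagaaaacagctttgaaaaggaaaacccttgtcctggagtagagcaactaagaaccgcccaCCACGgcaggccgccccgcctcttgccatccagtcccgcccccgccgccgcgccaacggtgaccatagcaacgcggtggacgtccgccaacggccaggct
Ssr3: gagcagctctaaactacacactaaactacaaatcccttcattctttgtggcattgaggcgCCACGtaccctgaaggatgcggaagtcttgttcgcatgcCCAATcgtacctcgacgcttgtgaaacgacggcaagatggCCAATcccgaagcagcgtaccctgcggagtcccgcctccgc
Ddost: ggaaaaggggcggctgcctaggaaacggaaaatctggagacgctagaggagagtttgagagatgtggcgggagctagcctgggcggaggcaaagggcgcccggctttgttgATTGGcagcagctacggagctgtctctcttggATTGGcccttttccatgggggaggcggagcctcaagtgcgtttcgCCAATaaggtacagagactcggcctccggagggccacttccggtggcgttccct
Mogs: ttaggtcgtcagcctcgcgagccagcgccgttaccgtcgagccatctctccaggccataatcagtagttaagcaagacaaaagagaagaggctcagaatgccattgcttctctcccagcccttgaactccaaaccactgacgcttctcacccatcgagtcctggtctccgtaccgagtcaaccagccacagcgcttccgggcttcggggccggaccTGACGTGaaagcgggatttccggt
The Ssr3 window holds 2 CCAAT boxes and 1 CCACG, the Ddost window 3 CCAAT boxes, and the Sec61a2 window 1 CCACG and no CCAAT box.

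The SRP and its receptor had a lower median than the 34 genes together, a log2 change of 0.77 in hIAPP and 0.67 in mIAPP islets. In hIAPP islets 6 of 7 genes were called higher, and in mIAPP islets 7 of 7. Srprb, the membrane-anchored beta subunit of the SRP receptor, rose most in both. Its level ran from 46.7 to 77.7 CPM (median 63.9) in hIAPP at 11.1 mM and from 139.7 to 171 CPM (median 148) at 16.7 mM, so the groups did not overlap. In mIAPP islets the 2 ranges, 38.5 to 104 CPM and 96.7 to 166 CPM, overlapped by the set 7 library at 16.7 mM. The log2 fold changes were 1.26 ± 0.10 (SE) and 1.06 ± 0.10, with adjusted p of 1.66e-10 and 8.92e-09. Srprb shares 21.8% of its 31-base words with other annotated genes, 20.5% with Gm20425, so its counts may be split or mixed by the assignment of reads.

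Srp9, which with Srp14 forms the Alu domain that slows elongation, ran from 77.3 to 107 CPM at 11.1 mM and from 141 to 181 CPM at 16.7 mM in hIAPP islets, and from 76.7 to 103 and from 146 to 178 CPM in mIAPP islets. Both pairs of groups stood apart, and the log2 changes were 0.79 ± 0.07 and 0.93 ± 0.07. Srp72, a scaffold of the particle, changed by 0.77 ± 0.09 and 0.67 ± 0.09, also without overlap. Srp68, its partner, and Srp14 gave 0.69 and 0.57 in hIAPP and 0.52 and 0.54 in mIAPP islets. The exception was Srp19, which helps assemble the particle: it changed by 0.23 ± 0.11 in hIAPP islets (adjusted p = 0.0842) and by 0.50 ± 0.11 in mIAPP islets (adjusted p = 0.000868). Its highest level in each group came from the set 7 library, at 89.5 CPM in mIAPP at 16.7 mM. Without set 5 the change in hIAPP islets passed the test at 0.27 (adjusted p = 0.0321; 0.00045 to 0.365 over 20 alternatives).

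Srp54a encodes the GTPase subunit that reads the signal sequence. It changed by 1.20 ± 0.12 in hIAPP and 1.00 ± 0.12 in mIAPP islets, but 72.5% of its 31-base words also occur in Srp54b, so the copies cannot be told apart with confidence. Summed with Srp54b and Srp54c, the level was 537 ± 33.7 and 456 ± 95.5 CPM in hIAPP and mIAPP islets at 16.7 mM and 235 ± 57.4 and 213 ± 60.6 CPM at 11.1 mM (SD, n = 8). The ranges of the sum were 492 to 583 CPM and 166 to 321 CPM in hIAPP islets and did not overlap, while in mIAPP islets the set 7 library at 16.7 mM lay inside the 156 to 336 CPM of the 11.1 mM group.

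The translocon had the lowest median of the 6 roles in both genotypes. Its 6 genes had median log2 changes of 0.44 in hIAPP and 0.59 in mIAPP islets, with 4 and 5 of 6 called higher. Sec63, a membrane protein that recruits the chaperone BiP to the channel, rose most: it ran from 90.2 to 145 CPM at 11.1 mM and 210.4 to 239 CPM at 16.7 mM in hIAPP islets, and from 83.05 to 146 and 167 to 232 CPM in mIAPP islets. Neither pair overlapped, and the changes were 0.94 ± 0.09 and 0.96 ± 0.09. Sec61a1, the main channel-forming subunit, was tight within groups, at 332 to 388 CPM against 511.5 to 558 CPM in hIAPP and 336 to 442 against 544 to 639.6 CPM in mIAPP islets. Its rise was 0.59 ± 0.06 and 0.60 ± 0.06, 1.502-fold and 1.512-fold, again without overlap.

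The small subunit Sec61b rose by 0.64 ± 0.09 and 0.65 ± 0.09, with overlap in mIAPP islets, and 23.5% of its 31-base words are shared with other genes. Sec62, which works with Sec63 in post-translational import, rose by 0.30 ± 0.10 in hIAPP islets (8 of 8 sets) and 0.59 ± 0.10 in mIAPP islets (7 of 8 sets). Its hIAPP groups overlapped, at 114 to 150.5 CPM against 145 to 173 CPM, and the call was lost with the mitochondrial share as a covariate (0.33, adjusted p = 0.148; 0.00223 to 0.269 over 20 alternatives). Sec61g, the other small subunit, changed by 0.11 ± 0.11 in hIAPP islets (adjusted p = 0.425) and by 0.42 ± 0.11 in mIAPP islets (adjusted p = 0.00377), and it shares 15.7% of its words with a pseudogene. Over the alternatives its hIAPP value ran from 0.01 to 0.61.

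Sec61a2, the second channel-forming gene, was the only member whose estimate was below 0. It ran from 7.81 to 16.8 CPM (median 10.7) at 11.1 mM and 8.90 to 11.2 CPM (median 10.4) at 16.7 mM in hIAPP islets. In mIAPP islets the 2 groups ran from 10.3 to 13.0 CPM (median 11.2) and from 7.77 to 11.8 CPM (median 9.98), so both pairs overlapped. The log2 changes were -0.12 ± 0.11 (adjusted p = 0.325) and -0.18 ± 0.11 (adjusted p = 0.162). With that set 7 library of mIAPP islets at 16.7 mM left out, the mIAPP value was -0.26 and passed the test (adjusted p = 0.0339; 0.0277 to 0.410 over 20 alternatives). Per kb its mean level over all libraries, 2.35 CPM, was the lowest of the 34, beside 68.8 CPM per kb for Sec61a1. Sec61a2 shares 19.9% of its 31-base words with other annotated genes, 18.7% with Nudt5, so its counts may be split or mixed by the assignment of reads.

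TRAP, which sits beside Sec61 and helps substrates with weak signal sequences to enter, rose in full. All 4 genes were called higher in both genotypes, with medians of 1.22 and 1.17. Ssr3, its gamma subunit, had the largest change of the 34 in both genotypes. In hIAPP islets it ran from 74.2 to 231 CPM (median 141) at 11.1 mM and from 443 to 583.5 CPM (median 508) at 16.7 mM, with a clear gap. In mIAPP islets it ran from 41.6 to 240.2 CPM (median 119) and from 149 to 548 CPM (median 436), overlapping by the set 7 library. These are changes of 1.89 ± 0.20 and 1.83 ± 0.20, 3.71-fold and 3.55-fold (adjusted p = 1.41e-08 and 6.24e-08). The SE was larger than for the other TRAP genes, and in 3 of the 4 groups set 7 was the group's highest in mitochondrial share while in all 4 it was the lowest in Ssr3.

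Ssr4, the delta subunit, separated cleanly in both genotypes, at 212 to 247 against 509 to 619 CPM in hIAPP and 169 to 267 against 406 to 615 CPM in mIAPP islets. Its changes of 1.26 ± 0.09 and 1.24 ± 0.09 correspond to 2.39-fold and 2.35-fold. Ssr1, the alpha subunit, rose by 1.18 ± 0.10 and 1.11 ± 0.10, and Ssr2, the beta subunit, by 1.10 ± 0.08 and 0.89 ± 0.08. For Ssr1 the mIAPP groups overlapped, while the other 3 of these 4 comparisons stood apart.

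The signal peptidase genes were all called higher, 5 of 5 in both genotypes, with medians of 1.21 and 1.26. Sec11c, a catalytic subunit, had the smallest p of all members. It ran from 115 to 132 CPM (median 122) at 11.1 mM and 326 to 413 CPM (median 345.5) at 16.7 mM in hIAPP islets, and from 96.9 to 129 CPM (median 114) and 247 to 365 CPM (median 302) in mIAPP islets. Every library at 16.7 mM was far above every library at 11.1 mM, and the changes were 1.52 ± 0.07 and 1.45 ± 0.07 (adjusted p = 1.32e-14 and 1.19e-13). Sec11a, the other catalytic subunit, rose less, by 0.75 ± 0.07 and 0.70 ± 0.07, from 53.8 to 61.6 up to 91.0 to 103 CPM in hIAPP islets.

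Spcs1, an accessory subunit, rose by 1.41 ± 0.10 and 1.46 ± 0.11, without overlap in either genotype. It ran from 77.6 to 119.6 up to 235.5 to 287.5 CPM in hIAPP islets and from 54.04 to 119 up to 137 to 274 CPM in mIAPP islets. Spcs2 rose by 1.21 ± 0.12 and 1.25 ± 0.12, and Spcs3, a subunit required for cleavage, by 1.14 ± 0.13 and 1.26 ± 0.13. For both genes the hIAPP groups stood apart, whereas the mIAPP groups overlapped through the set 7 library at 16.7 mM, at 198 CPM for Spcs2 and 263 CPM for Spcs3.

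OST rose in full. All 9 genes were called higher in both genotypes, with changes from 0.96 to 1.46 (median 1.24) in hIAPP and 0.93 to 1.21 (median 1.00) in mIAPP islets. Ddost, a subunit of the core complex, had the highest level per kb of the 34 genes (mean 217 CPM per kb over all libraries), followed by Rpn2 (158) and, from the translocon, Sec61b (134). Ddost ran from 231 to 348 CPM (median 269) at 11.1 mM and 625 to 795 CPM (median 694) at 16.7 mM in hIAPP islets, and from 227 to 399 CPM (median 255) and 464 to 699 CPM (median 546) in mIAPP islets. The groups stood apart in both, with changes of 1.35 ± 0.10 and 0.99 ± 0.09.

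Rpn2 and Rpn1, the ribophorins of the core complex, rose by 1.46 ± 0.09 and 1.34 ± 0.09 in hIAPP and by 1.12 ± 0.09 and 1.15 ± 0.08 in mIAPP islets. Rpn2 ran from 330.3 to 474.5 CPM (median 399) up to 925 to 1376 CPM (median 1080) in hIAPP islets and from 337 to 489 CPM (median 396) up to 689 to 1162 CPM (median 814.5) in mIAPP islets. Ostc, a subunit of the form of OST that works at the translocon, rose by 1.02 ± 0.07 and 1.11 ± 0.07, from 117 to 158 up to 258 to 323 CPM in hIAPP and from 106.5 to 157 up to 260.1 to 316 CPM in mIAPP islets. For all 3 genes the groups stood apart in both genotypes.

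The catalytic subunits Stt3a and Stt3b, which serve co-translational and skipped sites, rose by 1.12 ± 0.10 and 1.33 ± 0.14 in hIAPP and 0.96 ± 0.10 and 1.21 ± 0.14 in mIAPP islets. Dad1, a small core subunit, gave 1.20 and 0.94. Magt1 and Tusc3, alternative oxidoreductase subunits of the Stt3b form, gave 0.96 ± 0.12 and 1.24 ± 0.21 in hIAPP and 1.00 ± 0.12 and 0.93 ± 0.21 in mIAPP islets. Tusc3 varied widely at 11.1 mM: it ran from 24.9 to 82.3 CPM (median 48.9) in hIAPP and 11.9 to 82.9 CPM (median 46.5) in mIAPP at 11.1 mM, and the lowest was the set 7 library in all 4 groups. With the mitochondrial share as a covariate its change in hIAPP islets was 0.23 and no longer called (adjusted p = 0.570; 3.36e-09 to 0.570 over 20 alternatives), and in libraries under 10% mitochondrial counts it was 0.72.

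Glucosidases I and II were called higher in 3 of 3 genes in both genotypes, with medians of 1.46 in hIAPP and 0.97 in mIAPP islets. Mogs, glucosidase I, ran from 41.2 to 66.9 CPM (median 47.1) at 11.1 mM and 145 to 194 CPM (median 170) at 16.7 mM in hIAPP islets. In mIAPP islets it ran from 44.65 to 76.4 CPM (median 48.55) and 95.5 to 177 CPM (median 117), so both pairs stood apart. The rises were 1.75 ± 0.09 and 1.20 ± 0.09, 3.37-fold and 2.29-fold. Prkcsh, the noncatalytic beta subunit of glucosidase II, rose by 1.46 ± 0.10 and 0.97 ± 0.10, from 91.45 to 117 CPM (median 109) up to 244 to 388 CPM (median 281) in hIAPP and from 83.55 to 151 CPM (median 106) up to 181 to 292 CPM (median 200.5) in mIAPP islets. Ganab, the catalytic alpha subunit, rose less, by 0.93 ± 0.10 and 0.67 ± 0.10, with overlap in mIAPP islets only.

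**Figure D2:**
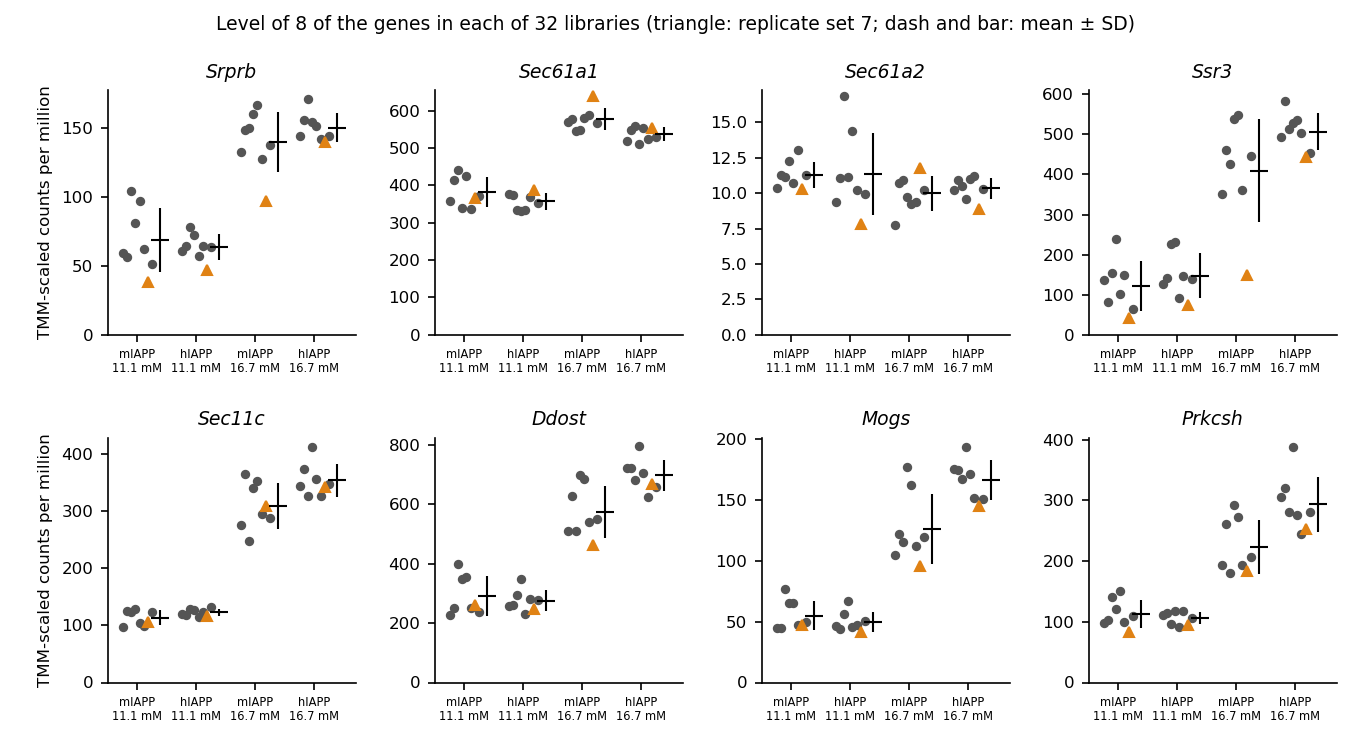
TMM-scaled CPM (vertical axis, from 0) of 8 of the genes in every library, by genotype and glucose; orange triangles are set 7, and the dash with bar is the mean ± SD of 8 libraries. All panels but Sec61a2 rise from 11.1 to 16.7 mM, and the set 7 triangle of mIAPP at 16.7 mM lies lowest for Srprb, Ssr3, Ddost and Mogs but highest for Sec61a1.

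The mitochondrial share moved with glucose, so the glucose effect was also read with it in the fit. With the log2 share as a covariate, 29 genes in hIAPP islets and 33 in mIAPP islets were called higher, against 10.0% and 18.3% of all genes, with medians of 0.81 and 0.84. Of the 31 called without the covariate in hIAPP islets, 27 were called with it: Sec61b (0.36), Sec62, Srp14 (0.28) and Tusc3 lost the call, and Srp19 (0.75) and Sec61g (0.54) gained it. Among the libraries with under 10% mitochondrial counts (8 and 5 of hIAPP and mIAPP at 16.7 mM, 2 and 3 at 11.1 mM), 31 and 33 genes were called higher, against 11.9% and 15.9% of all genes, with medians of 0.93 and 0.94. Next to Tusc3, the value that moved most was that of Ssr3 in hIAPP islets, from 1.89 to 1.10 with the covariate and 1.36 in the low-share libraries.

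The coefficient of the mitochondrial share itself, a test added after the data were seen, described how the genes moved among libraries of one group. Per doubling of the share 18 of 34 genes were lower, where 20.2% of all genes were, and 2 were higher, where 17.3% were. The median was -0.15 over the 34 genes and -0.01 over all genes. Tusc3 (-0.52 ± 0.11), Ssr3 (-0.41 ± 0.11) and Stt3b (-0.32 ± 0.07) fell most, and Srp19 (0.27 ± 0.06) and Sec61g (0.23 ± 0.07) rose. Sec61a1, Sec11c, Ostc and Magt1 were not called.

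**Figure D3:**
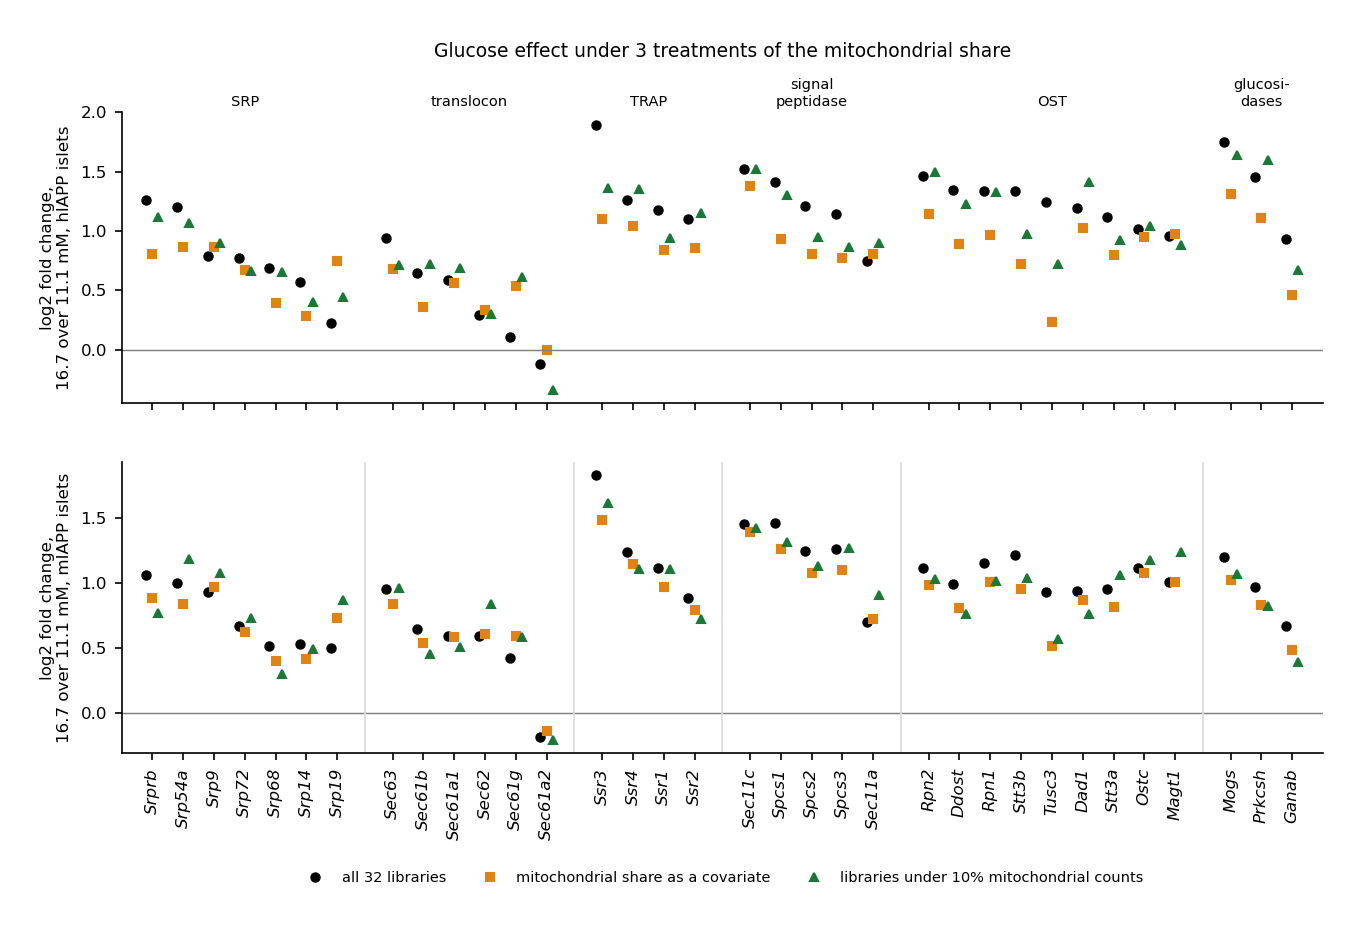
Log2 fold change from 11.1 to 16.7 mM (vertical axis) of the 34 genes in hIAPP islets (upper) and mIAPP islets (lower) from all 32 libraries (circles), with the mitochondrial share as a covariate (squares) and in libraries with under 10% mitochondrial counts (triangles). Medians over the 34 genes are 1.13, 0.81 and 0.93 in hIAPP and 0.96, 0.84 and 0.94 in mIAPP islets, and Tusc3 in hIAPP islets shows one of the widest spreads.

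At 16.7 mM, the condition of the study in which hIAPP islets can form amyloid, 5 of 34 genes were called higher in hIAPP islets and none lower, where 9.27% of all genes were called higher and 11.2% lower. So small a count does not by itself set the 34 genes apart from that background. The estimate was above 0 for 28 of 34 genes, with a median of 0.16 beside -0.01 for all genes. The 5 were Mogs, Prkcsh, Rpn2, Ddost and Srp54a, each higher in 8 of 8 sets, and no gene's groups stood apart, against 2.39% of all genes with hIAPP higher and 0.584% with it lower. Cell type markers differed too. In hIAPP islets 7 of 10 beta cell markers (median of the 10 -0.42) and 4 of 7 endothelial markers (median of the 7 -0.98) were called lower. The beta cell list includes Iapp, the replaced gene, with a mean of 10900 against 24270 CPM. Of 5 ductal markers tested Krt7 (0.62) alone was called, and the lowest estimate was -0.59. Among the other lists, 1 macrophage marker was called higher, and 1 alpha cell and 1 stellate marker lower. Of 3 plasma and B cell markers tested, 1 was called higher and 1 lower. The part of any of these markers in the difference was not tested. This comparison uses the same hIAPP libraries at 16.7 mM as the glucose comparison in hIAPP islets.

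Mogs was 1.34-fold higher, with 145 to 194 CPM in hIAPP against 95.5 to 177 CPM in mIAPP islets (log2 0.42 ± 0.09, adjusted p = 0.00156). Prkcsh was 1.32-fold higher (0.40 ± 0.10, adjusted p = 0.00626) and Rpn2 1.28-fold (0.36 ± 0.09, adjusted p = 0.00636). Ddost (0.29 ± 0.09, adjusted p = 0.0304) and Srp54a (0.35 ± 0.12, adjusted p = 0.0401) lay nearer the threshold. Srp54a shares 72.5% of its 31-base words with Srp54b, so reads may be moved between the copies. Srp54b was at 34.6 ± 29.4 CPM in hIAPP and 56.7 ± 28.7 CPM in mIAPP islets, and Srp54c at 206 ± 27.7 and 163 ± 40.2 CPM. The sum of the 3 copies was 537 ± 33.7 and 456 ± 95.5 CPM (SD, n = 8), and it was not tested. The other glucosidase gene, Ganab, reached 0.26 ± 0.10 (adjusted p = 0.0623), and Sec11c 0.20 ± 0.07 (adjusted p = 0.0521). Srp19 (-0.28, adjusted p = 0.0767) and Sec61g (-0.25, adjusted p = 0.112) had the lowest estimates.

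The mitochondrial share was lower in hIAPP islets at 16.7 mM, and its part in these differences was not tested beyond the values that follow. With the share as a covariate none of the 34 genes was called by edgeR (2.61% of all genes higher and 1.97% lower; 1 of the 34 had an unadjusted p under 0.05), and the values of Mogs, Prkcsh, Rpn2, Ddost and Srp54a were 0.17, 0.21, 0.18, 0.03 and 0.16. Among libraries under 10% none was called by edgeR either (4.38% of all genes higher and 2.23% lower; 5 had an unadjusted p under 0.05), with 0.40, 0.41, 0.39, 0.27 and 0.29 for the same 5, and adjusted p from 0.0843 for Mogs to 0.342 for Srp54a. Over 20 alternatives the adjusted p of Mogs ran from 6.16e-05 to 0.244 and that of Rpn2 from 0.000622 to 0.366. With the set 7 library of mIAPP islets at 16.7 mM left out, Ddost (0.27, adjusted p = 0.0745; 0.00921 to 0.928 over the alternatives) and Srp54a (0.28, adjusted p = 0.115; 0.00428 to 0.690) were not called. The same 2 also lost the call without all of set 1, 2, 6 or 7, and Srp54a without set 3 or 8. Without set 5, 9 genes were called higher and 1, Srp19 (-0.30), lower, where 10.3% of all genes were higher and 12.9% lower. Without the replicate block 3 genes were called higher, where 3.92% of all genes were higher and 4% lower, and Ddost (adjusted p = 0.107) and Srp54a (adjusted p = 0.154) were not called.

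At 11.1 mM none of the 34 genes was called between the genotypes by edgeR's test, where 0.128% of all genes were in either direction, and none was called by DESeq2 or limma voom. By edgeR the lowest adjusted p was 0.722. At an unadjusted p under 0.05 there were 2, the signal peptidase genes Spcs1 (0.27 ± 0.10) and Spcs3 (0.30 ± 0.13). The median was 0.07 over the 34 genes.

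**Figure D4:**
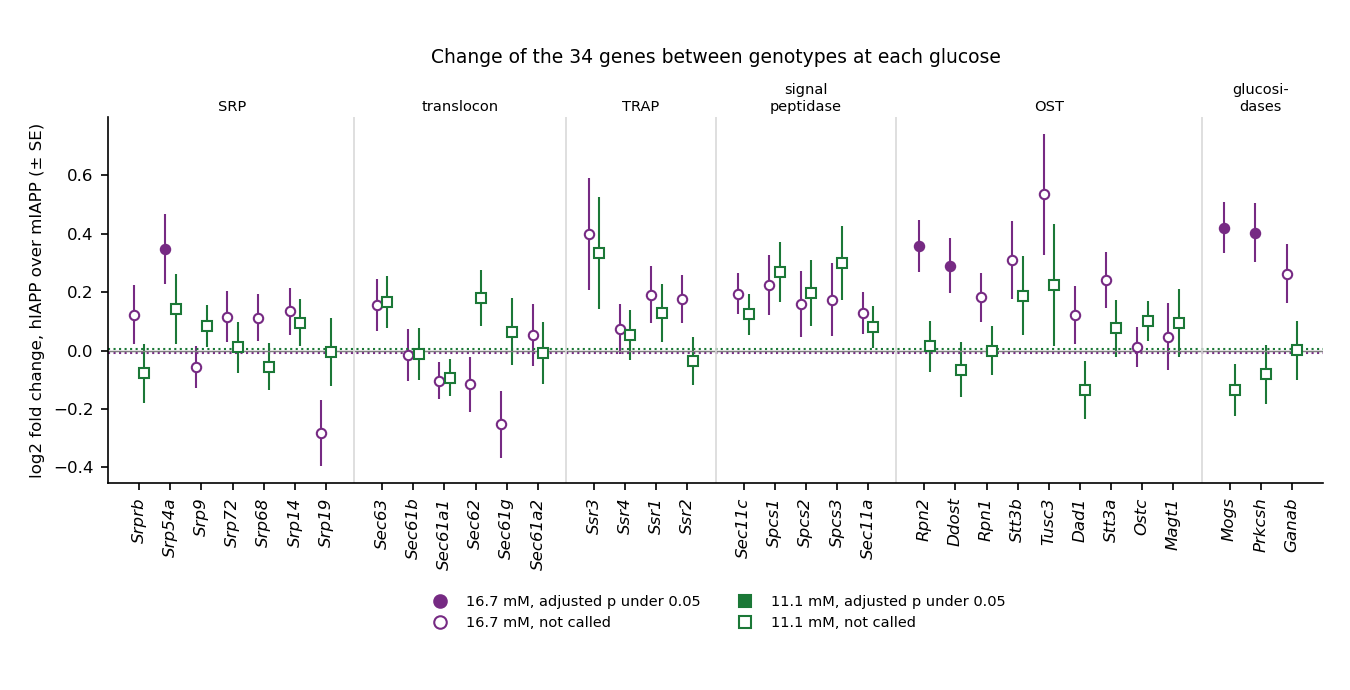
Log2 fold change of hIAPP over mIAPP islets (vertical axis, ± SE) of the 34 genes at 16.7 mM (circles) and 11.1 mM (squares), filled where the adjusted p was under 0.05; dotted lines are the medians of all genes tested. The 5 filled circles are Srp54a, Rpn2, Ddost, Mogs and Prkcsh, and no square is filled.

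Whether glucose acted differently in the genotypes was tested as an interaction. Mogs alone was called, with a glucose rise larger by 0.56 ± 0.12 on the log2 scale in hIAPP than in mIAPP islets (adjusted p = 0.0102, larger in 8 of 8 sets), where 3.12% of all genes were called in either direction. Prkcsh (0.49 ± 0.14, adjusted p = 0.0576), Ddost (0.36 ± 0.13, adjusted p = 0.145) and Rpn2 (0.34 ± 0.13, adjusted p = 0.134) were also larger in 8 of 8 sets but were not called. The Mogs call was lost without the replicate block (0.54, adjusted p = 0.178), with the mitochondrial share as a covariate (0.29, adjusted p = 0.168) and in libraries under 10% (0.57, adjusted p = 0.313), and it held without any 1 set. Over 19 alternatives its adjusted p ran from 0.000773 to 0.313. For the other 33 genes a genotype difference in the glucose response was not called, and their estimates ran from -0.32 for Sec61g to 0.49 for Prkcsh.

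The balance within 4 pairs of related subunits was compared next, and it shifted with glucose in both genotypes for 2 pairs and in hIAPP islets for a further 1. The log2 ratio of the pair's counts in a library does not depend on how libraries are scaled, and 20 such comparisons were tested with exact two-sided sign-flip permutation tests over the 8 sets, whose smallest p is 0.00781. Adjusted over the 20, of which 6 reached that smallest p, it became 0.026. Sec61a1 gained on Sec61a2: the ratio rose by 0.69 ± 0.40 (SD over 8 sets) in hIAPP and 0.79 ± 0.32 in mIAPP islets, in 8 of 8 sets each, with the smallest adjusted exact p of 0.026. The counts of Sec61a2 may be mixed with those of Nudt5, with which it shares 18.7% of its 31-base words. Sec11a lost to Sec11c by the same test: the ratio changed by -0.78 ± 0.15 and -0.74 ± 0.31, in 8 of 8 sets each. Stt3a lost to Stt3b in hIAPP islets, by -0.21 ± 0.11 in 8 of 8 sets, and gave -0.28 ± 0.40 in mIAPP islets, lower in 6 of 8 sets (adjusted exact p = 0.256). The mitochondrial share also differed between the hIAPP groups, at 4.06% at 16.7 mM and 16.6% at 11.1 mM. Per doubling of it Stt3a changed by -0.17 and Stt3b by -0.32, and its part in this ratio was not tested. Magt1 to Tusc3 was not called for glucose, at -0.27 in hIAPP (adjusted exact p = 0.256) and 0.05 in mIAPP islets (adjusted exact p = 0.844).

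Between genotypes 1 ratio passed: at 16.7 mM Magt1 to Tusc3 was lower in hIAPP islets, with a difference of -0.48 ± 0.63 in 8 of 8 sets (adjusted exact permutation p = 0.026). The set 7 library of mIAPP islets, at a log2 ratio of 3.63, was far from the others, and without set 7 the mean difference was -0.26. The mitochondrial share differed between these groups (4.06% against 11.3%), and per doubling of it Tusc3 changed by -0.52 and Magt1 by 0.01. Its part in the ratio was not tested. With 7 sets the smallest adjusted p reached by any of these ratios was 0.0521, so none was called without a set. None of the 4 ratios differed in its glucose response between genotypes (lowest adjusted exact p = 0.495; none had an unadjusted p under 0.05).

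**Figure D5:**
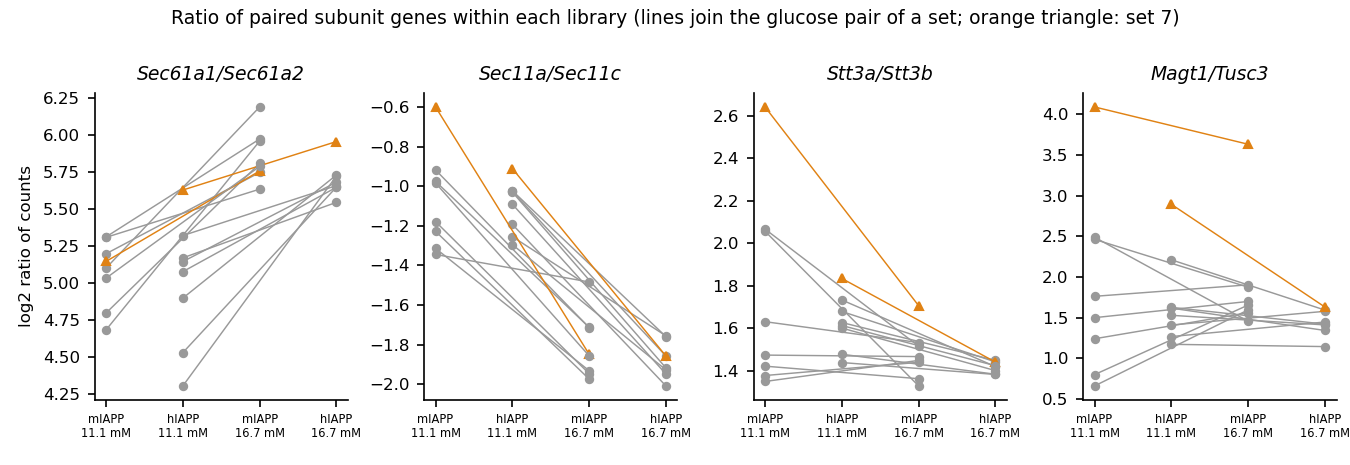
Log2 ratio of counts (vertical axis) of 4 pairs of subunit genes in each library, by genotype and glucose; lines join the 2 glucose conditions of a set within a genotype, and orange triangles are set 7. Every line rises for Sec61a1 over Sec61a2 and falls for Sec11a over Sec11c, and set 7 of mIAPP stands far above the others for Magt1 over Tusc3.

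Genes that work next to this machinery were read from lists chosen with earlier results of these data known. Of their 89 tested genes, 63 were called higher and 9 lower with glucose in hIAPP islets, and 62 and 8 in mIAPP islets, where 32.2% and 33.3% of all genes were higher and lower in hIAPP and 24.9% and 22.7% in mIAPP islets. The steps after glycan transfer rose with it: of 15 genes for glycan trimming and the lectins that read glycans, 14 were higher and 1 lower in each genotype at 16.7 mM, with medians of 1.12 in hIAPP and 0.90 in mIAPP islets. Mcfd2, a cargo receptor partner of Lman1, rose by 1.59 ± 0.11 and 1.32 ± 0.11, Pdia3, the oxidoreductase that works with calnexin and calreticulin, by 1.38 ± 0.11 and 1.27 ± 0.11, and Calr, calreticulin, by 1.03 ± 0.07 and 0.90 ± 0.07. Edem2, of the degradation branch, gave 1.00 and 0.83. The gene called lower was Engase, a cytosolic endoglycosidase, at -0.41 and -0.36.

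Assembly of the dolichol-linked glycan rose in part: 18 of 28 genes were higher and 2 lower in each genotype, with medians of 0.61 and 0.44. Gmppb, which makes GDP-mannose, rose by 1.09 ± 0.07 and 0.80 ± 0.07, Dpagt1, the first enzyme on dolichol, by 0.79 ± 0.06 and 0.52 ± 0.06, Dhdds, which builds the dolichol chain, by 0.92 ± 0.08 and 0.68 ± 0.08, and Alg5, which makes dolichol-phosphate glucose, by 0.74 ± 0.06 and 0.80 ± 0.06. Dolpp1, a dolichol pyrophosphate phosphatase (-0.58 and -0.48), and Pmm1, a phosphomannomutase (-0.80 and -0.63), fell. The small OST subunits Tmem258 (0.81 and 0.80), Krtcap2 (0.67 and 0.59) and Ost4 (0.34 and 0.36) rose in both genotypes.

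Of 17 tested partners of the translocon, 12 rose in each genotype, and 2 fell in hIAPP islets. The shares of all genes that rose and fell were 32.2% and 33.3% in hIAPP and 24.9% and 22.7% in mIAPP islets. Hspa5, the chaperone BiP, rose by 1.62 ± 0.11 and 1.52 ± 0.11, and Tram1, a membrane protein at the channel, by 1.25 ± 0.11 and 1.23 ± 0.11. Nomo1 rose by 1.28 ± 0.08 and 0.96 ± 0.08, while the other subunits of its complex, Ncln (-0.27, adjusted p = 0.0371) and Tmem147 (-0.33, adjusted p = 0.0147), fell in hIAPP islets. The routes that bypass Sec61 or insert other membrane proteins were mixed, beside the same shares of all genes. Of 16 genes of the tail-anchor pathway and the ER membrane complex, 8 rose in each genotype, 3 fell in hIAPP and 4 in mIAPP islets, with medians of 0.18 and 0.16. Emc7 rose by 0.96 ± 0.08 and 0.83 ± 0.08, whereas Emc9 (-0.93 and -0.45) and Sgta (-0.75 and -0.50) fell.

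Among 10 known or candidate regulators of the machinery, 8 rose and 1 fell in hIAPP islets and 7 rose and 1 fell in mIAPP islets. Of all genes 32.2% rose and 33.3% fell in hIAPP islets, and 24.9% and 22.7% in mIAPP islets. Creb3l2, a membrane-bound transcription factor, rose by 1.13 ± 0.16 and 0.75 ± 0.15, Creb3, a relative, by 0.74 ± 0.06 and 0.34 ± 0.06, and Nfyc, a subunit of the factor that binds CCAAT, fell by 0.64 ± 0.08 and 0.34 ± 0.08 on the log2 scale. Between genotypes at 16.7 mM, 14 of the 89 genes of these lists were called higher and 6 lower in hIAPP islets, where 9.27% of all genes were higher and 11.2% lower. By list, 4 were higher and 1 lower among the regulators, 4 and 1 among glycan trimming and lectins, 4 and 0 among translocon partners, 1 and 1 in dolichol-linked assembly, 1 and 3 in the tail-anchor pathway and ER membrane complex, and by edgeR none among the small OST subunits, with none at an unadjusted p under 0.05. Ern1, the stress sensor that splices Xbp1, was 2.06-fold higher in hIAPP islets (1.04 ± 0.26, adjusted p = 0.00636), and Creb3 1.24-fold (0.31 ± 0.06, adjusted p = 0.00101). The lower regulator was Nfyc (-0.35 ± 0.08, adjusted p = 0.00226), and the other lower genes were Sgta (-0.44), Emc9 (-0.46), Emc8 (-0.23), Dolpp1 (-0.31) and Engase (-0.33). Genotype calls in these lists were not read with the mitochondrial share as a covariate, and its part in them was not tested. With that covariate 2.61% of all genes were called higher and 1.97% lower in hIAPP islets at 16.7 mM. Creb3 was the 1 gene of these lists called in the interaction (0.40, adjusted p = 0.00915), and at 11.1 mM none of the 89 tested genes of these lists was called between genotypes by edgeR, with 12 at an unadjusted p under 0.05.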

How the data were processed

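RNA-seq libraries of 32 cultured islet samples were analysed from the gene table that the authors deposited. Its values are expected counts per gene that the authors estimated and deposited, and they are not whole numbers. Per the submitters' processing notes, bcl2fastq 1.8.4, kallisto 0.45.0 and the GRCm38 build were used. How transcripts were summed to genes, and whether strand was used although the kit keeps it, are not given in the sources used here. For the fits the expected counts were rounded to whole numbers. No row lacked a gene name and no pair of columns was identical.

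Genes were kept by filterByExpr (16428 of 36595), and libraries were scaled by TMM. edgeR 4.0.16 (R 4.3.3) fitted 1 robust quasi-likelihood model to the 4 groups with the set as a block (21 residual degrees of freedom). Benjamini-Hochberg adjustment ran over all genes tested, with calls at an adjusted p under 0.05. SE is the log2 fold change over the root of F. The labels give each of 8 sets all 4 groups, which is where the pairing comes from. As a check, same-set libraries correlated in their deviations from group means at 0.168 to 0.362 on average per pair of groups (lowest -0.23). The edgeR p-values rest on the spread left among libraries after group and set effects were fitted. Nothing says which mice a set held.

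Members and lists were chosen with earlier results of these data known. All 34 members could be named by role. Full values went to up to 4 per role with the smallest p, and Srp19, Sec61g, Sec61a2 and Tusc3 were added after their values were seen. Up to 4 genes per neighbouring list were named by smallest p, and the genes called lower were added likewise (Hm13 and Camlg were not matched). limma 3.58.1 (voom), DESeq2 1.42.0, other scalings and filters, a mitochondrial covariate and left-out libraries were alternatives. Ratios of paired genes had 0.5 counts added to each gene (5 in an alternative). The fits were tested on simulated counts, with changes put into genes drawn from all those tested. In the genotype comparison at 16.7 mM, 77.6% of changes of 1 on the log2 scale and 38% of changes of 0.5 were called. Smaller differences can therefore go without a call. Exon lengths and shared 31-base words come from GENCODE M21, whose positions are on GRCm38, and promoter windows from RefSeq.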

Additional observations from a re-analysis of the deposited data

Results flagged for a closer look

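Of 136 sets of 8 libraries (34 genes in 4 groups), 11 held 1 library far from the rest by the size of its gap to the nearest library relative to the range. For independent, normally distributed values chance gives such a gap in about 1 in 20 groups. The 34 genes were read in the same 32 libraries, so the 11 cannot be set against that rate. The 11 came from 4 libraries. The mIAPP library of set 7 at 16.7 mM was the highest for Srp19 (89.5 CPM, next 54.4) and Sec61a1 (639.6 CPM, next 587) and the lowest for Spcs2 (198 CPM, next 314) and Spcs3 (263 CPM, next 395.5). The mIAPP library of set 7 at 11.1 mM was the highest for Srp19 (74.7 CPM, next 42.8) and Sec61g (259 CPM, next 169). Their mitochondrial shares, 37.0% and 34.7%, were the highest of their groups.

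The mIAPP library of set 4 at 11.1 mM was the highest for Srp54a (185 CPM, next 124), Spcs3 (301 CPM, next 203) and Stt3a (224 CPM, next 167). In hIAPP islets at 16.7 mM the set 4 library was the highest for Ssr4 (619 CPM, next 553) and Dad1 (341 CPM, next 284.5). Over all members, set 4 gave the highest library of its group for 10 to 15 of the 34 genes in each of the 4 groups.

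The glucose rise of Mogs was larger in hIAPP than in mIAPP islets by 0.56 on the log2 scale. Mogs was the single member called in edgeR's test of that difference, where 3.12% of all genes were called in either direction. A single call does not by itself set the members apart from that background. The call held with any set left out. It was lost without the replicate block (0.54), with the mitochondrial share as a covariate (0.29) and in the low-share libraries (0.57).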

How the results depend on the processing

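The 31 genes called for glucose in hIAPP and the 33 in mIAPP islets became 29 to 33 and 32 to 34 over 20 alternatives, and 31 to 32 and 33 to 34 with any 1 set left out. With 1 set left out, 59.5% to 65.7% of all genes were called in either direction in hIAPP and 38.2% to 51.7% in mIAPP islets. Where 34 were called in mIAPP islets, 33 were higher and 1, Sec61a2, was lower. No called value changed sign under any alternative, and none of the 34 genes was called at 11.1 mM under any.

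The 5 genes called between genotypes at 16.7 mM became 12 with library totals only, a scaling that moved the median of all genes from -0.01 to 0.18 and the split of all calls from 1523 higher and 1848 lower to 2421 and 730. In the hIAPP glucose comparison it moved the median from -0.02 to 0.15 and the split from 5294 and 5474 to 6240 and 4178. DESeq2 called 8 higher, where it called 11.7% of all genes higher and 13.3% lower. Without the replicate block 3 were called higher, beside 3.92% of all genes higher and 4% lower. Without mIAPP at 16.7 mM replicate 7 there were also 3, beside 6.49% and 6.27%. Leaving out 1 set gave 3 to 10, beside 9.89% to 23.2% of all genes in either direction. The 10, without set 5, were 9 higher and 1 lower. With the mitochondrial share as a covariate and in libraries under 10% mitochondrial counts edgeR called 0 (1 and 5 at an unadjusted p under 0.05). The cause was not tested.

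The 1 interaction call became 2 with DESeq2, with limma voom and with a mean of at least 5 CPM, where Prkcsh joined Mogs. These settings called 5.84%, 5.76% and 4.44% of all genes in either direction. By edgeR the interaction count became 0 without the replicate block, with the covariate and in libraries under 10%, with 4, 2 and 9 genes at an unadjusted p under 0.05. Of all genes 1.19%, 1.58% and 0.0408% were called there. Leaving out 1 set gave 1 to 1, beside 1.46% to 3.39% of all genes.

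For the ratios of paired genes, 7 sets allow no adjusted p under the threshold, so calls are lost by fewer sets alone. Without 1 set the Sec61a1 to Sec61a2 change ran from 0.59 to 0.74 in hIAPP and 0.72 to 0.85 in mIAPP islets, that of Sec11a to Sec11c from -0.82 to -0.75 and -0.83 to -0.67, that of Stt3a to Stt3b in hIAPP from -0.23 to -0.18, and Magt1 to Tusc3 between genotypes from -0.54 to -0.26. Without pairing by set (no replicate block) the same 6 of 16 ratios were called. The interaction of the ratios was not run without the pairing. The lowest count of any member in any library was 108.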

Other observations

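Subunits of one complex differed widely in transcript level per kb of exon. In hIAPP islets at 16.7 mM, OST genes ran from 31.5 ± 3.78 CPM per kb for Tusc3 and 32.3 ± 2.00 for Stt3b to 252 ± 32.1 for Rpn2 and 329 ± 24.4 for Ddost (SD, n = 8). The catalytic subunit of the co-translational form, Stt3a, lay at 40.7 ± 2.16 CPM per kb. In the signal peptidase, Sec11a (20.8 ± 0.82 CPM per kb) and Sec11c (52.0 ± 4.19) lay below Spcs1 (169 ± 12.3) and Spcs3 (135 ± 7.72). Exon length here is that of all annotated exons of a gene, so genes with long or rarely used exons read low on this scale. Neighbours such as Tusc3 and Stt3b did not differ beyond their spread.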
